A study of Mus musculus with 20 samples.

Results

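The genes described here encode the collagens, the laminins and their main partners in the basement membrane, followed through isolated mouse pancreatic islets of 4 genotypes. They were chosen by name: every protein-coding gene called Col, a number, a and a number, every gene called Lama, Lamb or Lamc with a digit, and Fn1, Nid1, Nid2, Sparc and Hspg2. The rule found 60 genes among the 28632 of the count table, sorted into 11 classes by protein type. RNA was sequenced from 20 islet samples: 6 controls (Ctrl), 4 with deletion of Mfn1 (β-Mfn1KO), 5 with deletion of Mfn2 (β-Mfn2KO) and 5 with deletion of both genes (β-Mfn1/2DKO). The deleted alleles were Mfn1loxP/loxP, Mfn2loxP/loxP or the pair of them, recombined by Cre knocked into the Ins1 locus, so that deletion was constitutive and directed to β-cells. Controls are labelled wild type, while by the methods of the study they are mice that carry only the Ins1-Cre or only floxed alleles. All mice were on a C57BL/6N background and 12 weeks old, with 3 females and 3 males in Ctrl, 3 and 1 in β-Mfn1KO, 2 and 3 in β-Mfn2KO and 2 and 3 in β-Mfn1/2DKO. Islets were freed with collagenase, an enzyme that digests matrix protein, and cultured for 24 hours. Whole islets hold endothelial, stromal, immune and other endocrine cells beside β-cells. Depth differed by genotype. The 6 Ctrl libraries held 12400687 to 20329064 counts, the β-Mfn1KO libraries 15745680, 15856560, 16685381 and 15837350, the β-Mfn2KO libraries 15471421, 18919122, 15110046, 55962873 and 59533407 and the β-Mfn1/2DKO libraries 122947313, 83983489, 106430216, 97488270 and 65533388. In β-Mfn1/2DKO against Ctrl, depth and genotype cannot be told apart. Values are normalized counts, the deposited counts scaled by trimmed mean of M values (TMM) to a common library of 41410701 counts, and lists of values follow the replicate numbers. Levels of different genes are compared as RPKM, which scale the count by library size and by exon length in kilobases. A gene was called higher or lower when edgeR's adjusted p (Benjamini-Hochberg, BH) over all 28632 genes was under 0.05 and the fold change was over 1.5, which is 0.585 on the log2 scale. Fold changes are on the log2 scale with ± SE, taken as the size of the fold change over the square root of edgeR's F statistic. Levels are means ± SD.

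Basement membranes are thin sheets of matrix that underlie epithelia and wrap vessels, nerves and muscle. Laminin trimers of an α, a β and a γ chain polymerize at the cell surface and bind integrins, a network of collagen IV is laid over them, and nidogens and perlecan tie the networks together, while the fibrillar collagens of the interstitial matrix are made chiefly by fibroblast-like cells. In islets, β-cells make little basement membrane of their own and rest on the one that the capillary endothelium deposits, and outside them a peri-islet capsule of basement membrane and interstitial matrix separates the islet from acinar tissue.

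Both targeted genes followed the labels. Mfn1, a GTPase of mitochondrial fusion, measured 1518 to 1807 normalized counts in Ctrl (median 1693), 770.4, 621, 631 and 674 in β-Mfn1KO, 1712, 1711, 1682, 1807 and 1693 in β-Mfn2KO and 690.3, 691, 687, 856 and 1062 in β-Mfn1/2DKO. Every library with a deleted Mfn1 allele lay below every library without, though β-Mfn1/2DKO replicates 4 and 5 held the highest values among the deleted. Mfn2, its paralogue, measured 3089 to 4373 normalized counts in Ctrl (median 3252), 4399, 3869, 4607 and 4535 in β-Mfn1KO, 1532, 1586, 1688, 1474 and 1608 in β-Mfn2KO and 2022, 2082, 2062, 2131 and 2124 in β-Mfn1/2DKO. All β-Mfn2KO and β-Mfn1/2DKO libraries lay below all Ctrl and β-Mfn1KO libraries. The counts cover all exons of each gene and the whole islet, so they are a partial check of the deletion. The tissue label held as well, with all 10 β-cell markers present in every library and Ins2 the most abundant gene of that list. Summed β-cell markers measured 6057600 to 9684600 in Ctrl (median 7238800), 7906000, 8085600, 6572800 and 8330600 in β-Mfn1KO, 7886800, 6810800, 6263500, 7586800 and 5939600 in β-Mfn2KO and 3638500, 3584400, 3334400, 3219400 and 2681300 in β-Mfn1/2DKO normalized counts. All 5 β-Mfn1/2DKO sums lay below all others, and 8 of the 10 β-cell markers fell, among them Ins1, the locus that holds the Cre (-2.60 ± 0.14, adjusted p = 5.14e-11; edgeR, BH), Ucn3 (-1.36 ± 0.13), Slc2a2 (-1.60 ± 0.15) and G6pc2 (-1.02 ± 0.10). Ins1 was also lower in β-Mfn2KO (-0.94 ± 0.13, adjusted p = 0.00144) and in β-Mfn1KO (-0.82 ± 0.14, adjusted p = 0.0324), each without overlap with Ctrl (edgeR, BH). In β-Mfn1KO it lost the call, at adjusted p of 0.0544 to 0.195, without Ctrl replicate 4 or 5, any β-Mfn1KO library, β-Mfn2KO replicate 4, or β-Mfn1/2DKO replicates 4 and 5, and at 0.418 with those 2 genotypes fitted alone. In these bulk samples, fewer cells of a type and less RNA per cell cannot be told apart.

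A few libraries stood apart within their own genotype, and the matrix genes that follow them are given below with and without them. Ctrl replicate 6 and β-Mfn2KO replicate 5 had summed macrophage markers of 28905 and 39090 normalized counts, against 4850 to 10566 in the other 18 libraries, with Lyz2, a lysozyme of myeloid cells, as the most abundant gene. Their summed pericyte and fibroblast markers, 2820.5 and 3244, were the highest of their groups. Col1a2, Col3a1, Col5a1, Col5a2 and Col1a1, the main chain of interstitial collagen I, were highest of their groups in the same pair, Col1a1 at 4228 and 5544 normalized counts, while Col27a1 and Col11a2 were not. The β-Mfn1/2DKO replicates 4 and 5 had summed acinar markers of 1018500 and 2653700 normalized counts, against 27327, 45730 and 27597 in the other 3 β-Mfn1/2DKO libraries, and β-Mfn2KO replicate 4 had 441440. Amy2a5, an amylase, was the most abundant of these markers. The ductal keratin Krt19 stood at 2868 and 5190.4 in the same β-Mfn1/2DKO libraries, against 181, 124 and 147 in the other 3. In these 2 libraries Lamb3 stood at 586 and 865 and Col7a1 at 734 and 1891 normalized counts. The plot of marker sums and members by library shows both pairs.

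**Figure D1:**
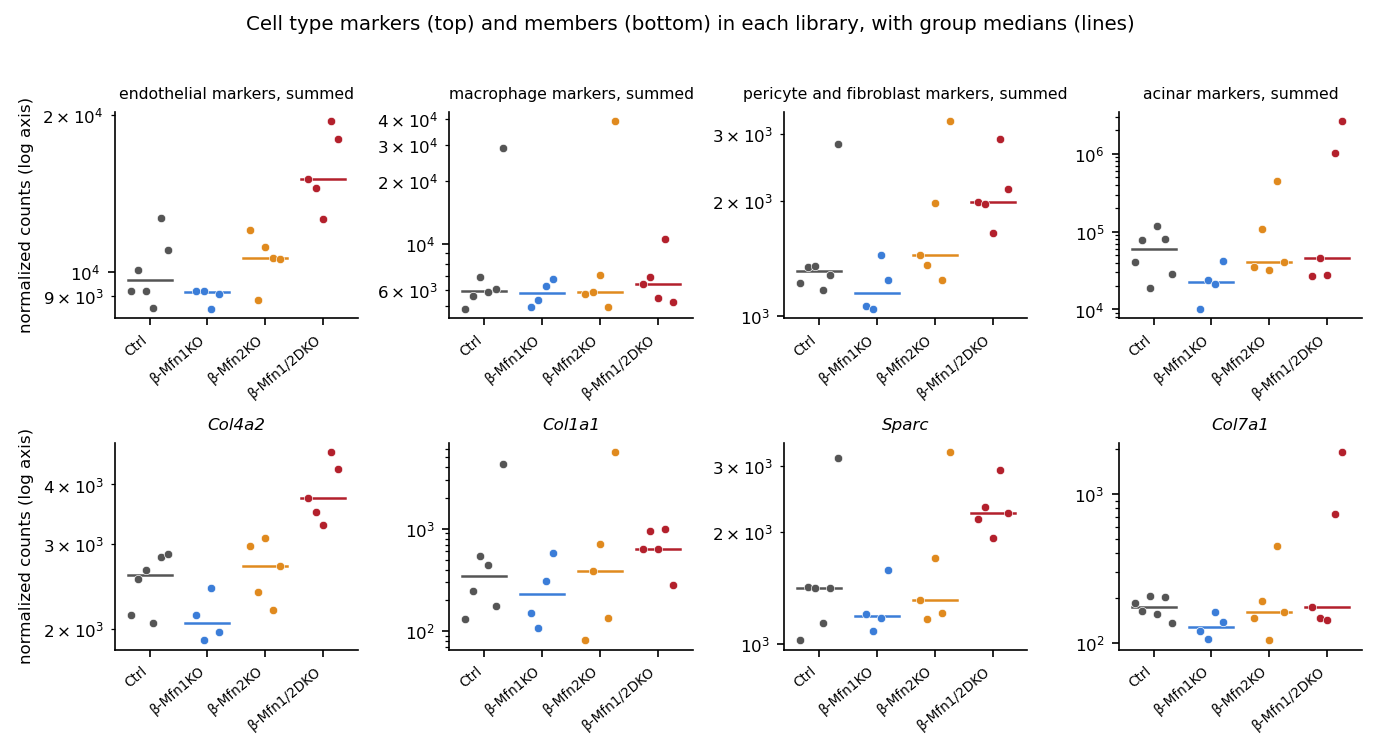
Normalized counts on a log axis in each of 20 libraries (points) by genotype, with group medians (lines): top, summed markers of endothelial cells, macrophages, pericytes and fibroblasts, and acinar cells, bottom, Col4a2, Col1a1, Sparc and Col7a1. Macrophage sums of 28905 (Ctrl) and 39090 (β-Mfn2KO) and acinar sums of 1018500 and 2653700 (β-Mfn1/2DKO) stand apart.

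The most abundant member per length in Ctrl islets was Col4a1, at 13.8 ± 1.90 RPKM (n = 6), before Col6a6 at 9.47 ± 1.39 and Col4a2 at 9.17 ± 1.26 RPKM. Lamc1 and Col16a1, at 4.35 ± 0.293 and 4.32 ± 0.772 RPKM, did not differ beyond their spread. Sparc averaged 10.2 ± 4.98 RPKM, with 20.1 in Ctrl replicate 6, and its median of 8.99 lay below those of Col6a6 (9.61) and Col4a2 (9.47). Col4a1, Sparc, Col6a6, Col4a2 and Lamc1 made up 49.2% of the summed RPKM of all members in Ctrl. Of the 60 members, 36 averaged 100 or more normalized counts over the libraries, 24 less, and 11 of those less than 10. A count was present in all 20 libraries for 47 members, and 13 were at 0 in some library. The low-count filter of edgeR kept 45 of them, among 15267 genes, and was used only as an alternative. All members together took 0.0701 ± 0.0229% of the counts in Ctrl, 0.0552 ± 0.00547% in β-Mfn1KO, 0.0765 ± 0.0239% in β-Mfn2KO and 0.0916 ± 0.0104% in β-Mfn1/2DKO. By class, the summed level of collagen IV was 23.2 ± 3.22 RPKM in Ctrl, 19.9 ± 2.41 in β-Mfn1KO, 24.7 ± 2.79 in β-Mfn2KO and 34.6 ± 5.06 in β-Mfn1/2DKO. Multiplexins, the collagens of the vascular basement membrane zone, stood at 2.64 ± 0.359, 2.32 ± 0.621, 2.94 ± 0.934 and 4.75 ± 0.722 RPKM in the same order. In both classes all 5 β-Mfn1/2DKO sums lay above all 6 Ctrl sums. Collagen VI went the other way in rank, at 13.6 ± 3.49, 9.71 ± 1.3, 13.8 ± 2.17 and 10.8 ± 0.381 RPKM, with all groups overlapping Ctrl. Fibrillar collagens overlapped too, at 14.5 ± 13.5, 9.12 ± 1.39, 17.5 ± 16.1 and 14.2 ± 2.03 RPKM, with 1 high library each in Ctrl and β-Mfn2KO. The FACIT collagens, which sit on the surface of fibrils, stood at 10 ± 1.03, 10.5 ± 0.626, 9.63 ± 0.486 and 11.2 ± 0.490 RPKM, and their members moved in opposite directions. The remaining classes, by the same measure, were the linkers at 14.6 ± 7.40 RPKM in Ctrl and 20.2 ± 3.47 in β-Mfn1/2DKO, the transmembrane collagens at 2.63 ± 0.465 and 3.15 ± 0.680, the laminin α chains at 1.75 ± 0.257 and 2.69 ± 1.11, the laminin β chains at 2.11 ± 0.240 and 3.95 ± 1.98, and the other collagens at 1.69 ± 0.269 and 3.22 ± 1.78. Replicates 4 and 5 of β-Mfn1/2DKO had laminin β sums of 5.58 and 6.58 RPKM, against 2.39 to 2.81 in the other 3, those of the other collagens 3.56 and 6.17, against 1.88 to 2.58, and those of laminin α 3.16 and 4.45, against 1.86 to 2.09. Class sums were not tested.

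**Figure D2:**
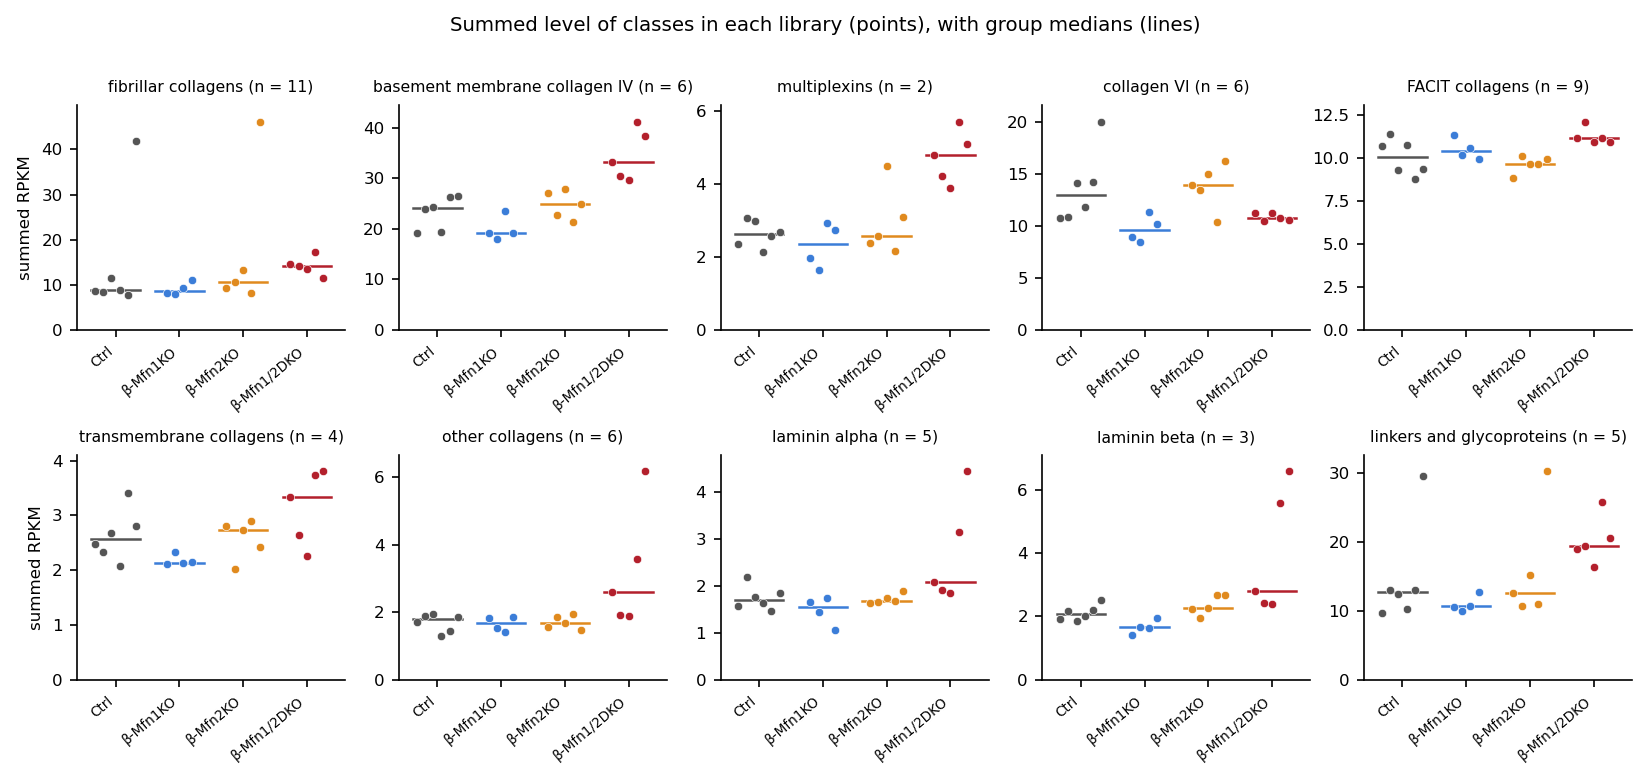
Summed RPKM of 10 of the 11 classes in each library (points) by genotype, with group medians (lines) and axes from 0. Collagen IV runs from 29.6 to 41.2 RPKM in β-Mfn1/2DKO and from 19.2 to 26.5 in Ctrl, while the fibrillar class has 1 high library each in Ctrl and β-Mfn2KO.

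In β-Mfn1/2DKO islets 15 of the members stood higher than in controls and 2 lower. The chains Col4a2, Lamb1, Lama4 and Lama5, the multiplexins Col15a1 and Col18a1, and the proteoglycan Hspg2 rose, as did the FACIT collagen Col14a1, by 1.98 ± 0.25. Col16a1, another FACIT collagen, and Col6a3, the large chain of collagen VI, fell. This comparison asks what loss of both mitofusins in β-cells does to islet RNA. By edgeR with Benjamini-Hochberg adjustment, 17 of the 60 members were called (28.3%), against 1491 of all 28632 genes, which is 5.21%. Of these, 15 were higher (25%, against 3.24% of all genes) and 2 lower (3.33%, against 1.97%). Of all genes 12274 averaged 100 or more, and among those the shares were 15 of 36 members (41.7%) and 7.44% of all such genes. The median log2 fold change was 0.34 over the members and 0.06 over all genes. Above 0 were 40 of the 60 members, and 37 to 43 under the other scalings. The count of calls moved with the libraries that stand apart. Without β-Mfn1/2DKO replicate 5 alone, 9 members were called (7 higher, 2 lower), and without replicates 4 and 5 there were 8 (6 higher, 2 lower), with a median of 0.15 over the members and 562 genes higher and 394 lower in all. Without that pair Col11a2 (0.575, from 0.587), Col4a2 (0.505, from 0.636) and Lamb1 (0.39, from 0.61) kept an adjusted p under 0.05 below the fold threshold, and Col22a1 (2.08, adjusted p = 0.125) missed the p alone (edgeR, BH). Both were missed by Lama4 (0.46), Hspg2 (0.37) and Lama5 (0.17), and Col7a1 (-0.16) and Lamb3 (-0.51) turned direction. Without Ctrl replicate 6, 18 were called (16 higher, 2 lower), and without it and β-Mfn2KO replicate 5 there were 24 (22 higher, 2 lower), the median over the members then being 0.61. With all 4 of these libraries left out, 15 were called (13 higher, 2 lower). With a term for deep and shallow libraries, which rests on the 5 β-Mfn2KO libraries, 6 were called: Col16a1 (-1.83, adjusted p = 0.000726), Col14a1 (2.12, adjusted p = 0.0136), Col4a2 (0.84, adjusted p = 0.0187), Col15a1 (1.41, adjusted p = 0.0293), Col9a2 (1.04, adjusted p = 0.0246) and, not called otherwise, Col8a2 (1.76, adjusted p = 0.0255) (edgeR, BH). The remaining 12 of the 17 were not called with that term. The deep β-Mfn2KO libraries were replicates 4 and 5, high in acinar and in macrophage markers respectively. Depth and these marker differences cannot be told apart with that term. Replicate number as a block added Sparc (0.86, adjusted p = 0.00129) and Lamb2 (0.60, adjusted p = 0.0214) and ended the calls of Col22a1 (adjusted p = 0.0789), Col7a1 (adjusted p = 0.133) and Lamb3 (adjusted p = 0.119) (edgeR, BH). What the replicate number stands for is not stated. Only Ctrl has a replicate 6, so the block gives that library its own term and in effect leaves it out. A term for sex ended the calls of Lamb1 (0.58, adjusted p = 0.000712), Col7a1 (adjusted p = 0.0631) and Lamb3 (adjusted p = 0.205) (edgeR, BH). Scaling by total counts moved the median of genes with at least 100 normalized counts from 0.03 to 0.17, so that 79.6% in place of 62.2% of all calls were higher, and no called member changed direction under any scaling. Changes in all comparisons are given relative to TMM scaling, under which that median lies near 0. Markers of endothelial cells, a source of islet basement membrane, moved with these genes. Of 14 endothelial markers 11 rose, with a median of 0.67, and without β-Mfn1/2DKO replicates 4 and 5 there were 4, with a median of 0.53. Cdh5, the vascular cadherin, changed by 0.77 ± 0.12, adjusted p = 0.000107, Robo4 by 0.72 ± 0.12 and Egfl7 by 0.64 ± 0.11 (edgeR, BH). Without β-Mfn1/2DKO replicates 4 and 5 Cdh5 stood at 0.56 ± 0.11, adjusted p = 0.00151 and Robo4 at 0.57 ± 0.12, adjusted p = 0.00246, under the fold threshold (edgeR, BH). The summed endothelial markers measured 8545 to 12724 in Ctrl (median 9675), 9203, 9228, 8521 and 9101 in β-Mfn1KO, 12040, 8863, 11204, 10667 and 10587 in β-Mfn2KO and 15118, 14472, 12640, 19489 and 17993 in β-Mfn1/2DKO normalized counts, Kdr being the most abundant and none being at 0 in any library. The part of these cells in the values of the members was not tested. All 17 called members are given per 100 normalized counts of the endothelial markers, in Ctrl and then β-Mfn1/2DKO, without a test. On that scale Col14a1 stood at 1.97 ± 0.737 and 4.98 ± 1.44, Col16a1 at 12.3 ± 3.56 and 2.73 ± 0.867 and Col6a3 at 10.9 ± 2.40 and 4.19 ± 1.25. The laminins and perlecan stood at 5.53 ± 0.429 and 5.32 ± 0.470 (Lamb1), 2.38 ± 0.615 and 2.33 ± 0.116 (Lama4), 4.24 ± 1.04 and 4.56 ± 2.10 (Lama5), 0.535 ± 0.555 and 1.72 ± 2.10 (Lamb3) and 6.79 ± 0.947 and 6.55 ± 0.537 (Hspg2). Col4a2 stood at 24.9 ± 2.33 and 24.6 ± 0.887, Col15a1 at 2.63 ± 0.808 and 3.37 ± 0.183, Col18a1 at 4.75 ± 0.691 and 4.96 ± 0.428, Col9a2 at 4.52 ± 1.5 and 4.71 ± 0.654, Col11a2 at 6.32 ± 1.38 and 6.11 ± 1.2, Col5a3 at 1.26 ± 0.509 and 1.54 ± 0.331, Col6a4 at 0.446 ± 0.163 and 0.618 ± 0.288, Col7a1 at 1.76 ± 0.351 and 3.52 ± 4.07 and Col22a1 at 0.0176 ± 0.0196 and 0.0514 ± 0.0153. By median, Col7a1 stood at 1.74 and 1.16 and Lama5 at 4.31 and 3.61, lower in β-Mfn1/2DKO where their means were higher. Lamb3 had medians of 0.242 and 0.307. The highest β-Mfn1/2DKO values of Col7a1, Lama5 and Lamb3 were 10.5, 8.13 and 4.81.

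**Figure D3:**
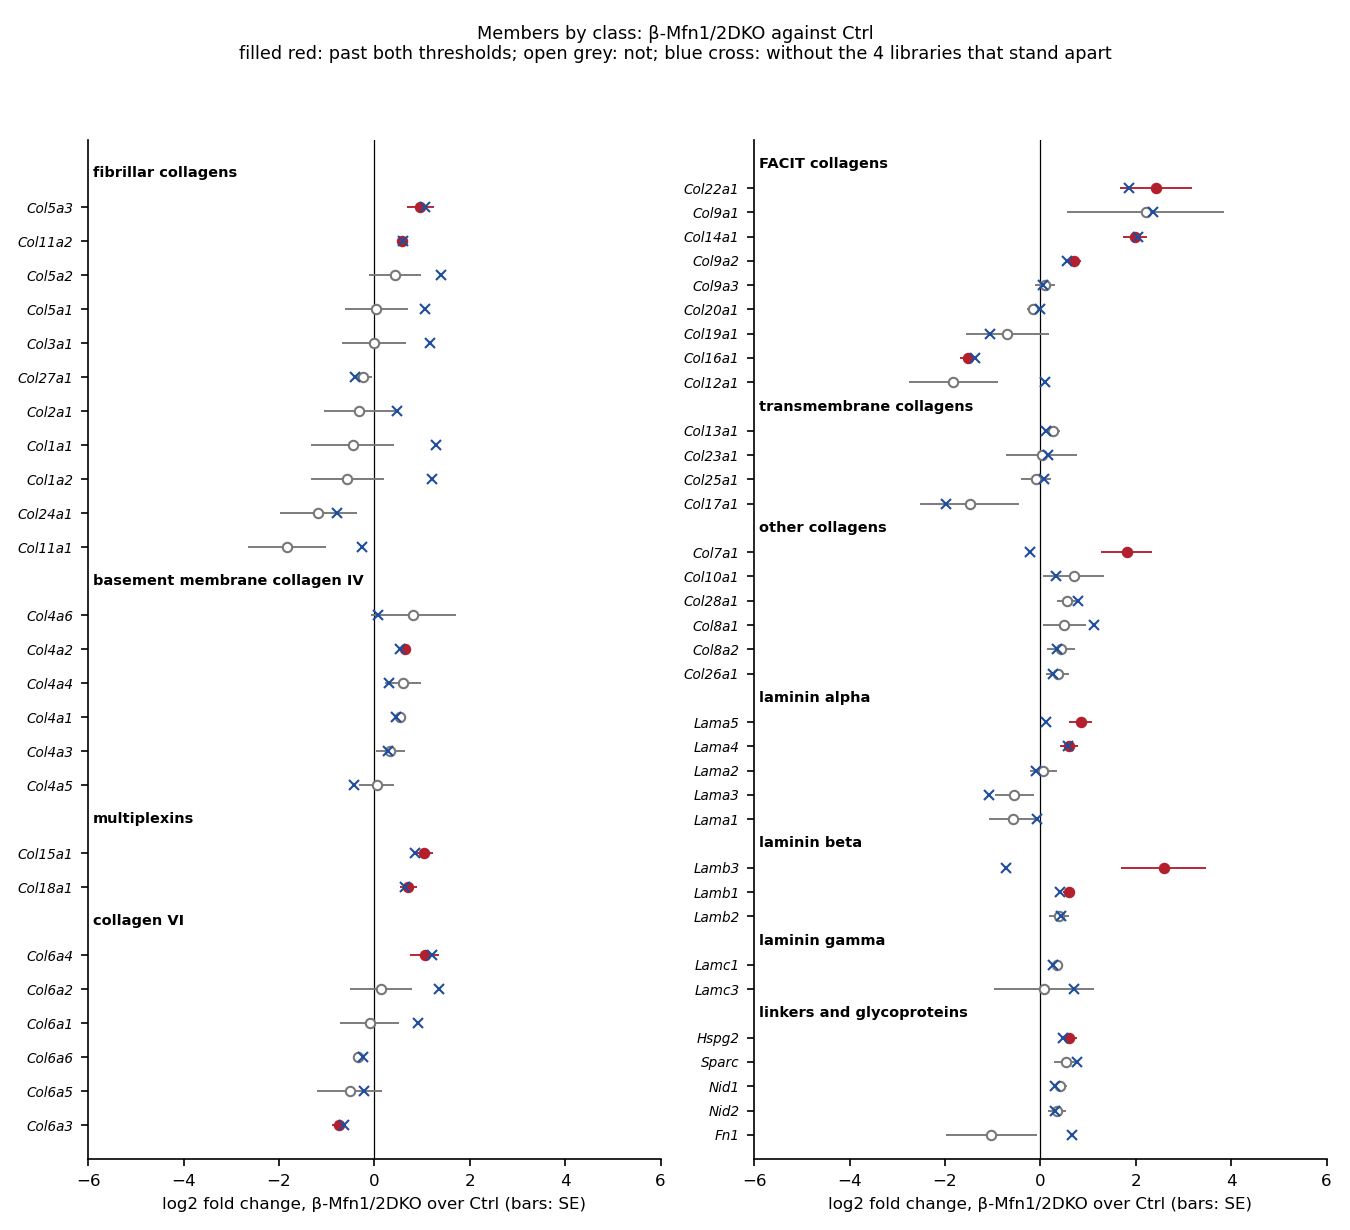
Log2 fold change (points, bars SE) of 59 of the 60 members in β-Mfn1/2DKO over Ctrl, by class: filled red points passed the adjusted p of 0.05 and the fold of 1.5, open grey ones did not, and blue crosses give the value without the 4 libraries that stand apart: Lamb3 and Col7a1 move below 0, Col1a1 above it, and Col14a1 and Col16a1 stay apart from 0.

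Collagen IV is the network collagen of all basement membranes, and its common form joins chains of Col4a1 and Col4a2. Col4a2 measured 2056 to 2867 normalized counts in Ctrl (median 2596), 2135, 1894, 2439 and 1974 in β-Mfn1KO, 2979, 2383, 3090.4, 2190.5 and 2708 in β-Mfn2KO and 3744, 3502, 3296, 4666 and 4318 in β-Mfn1/2DKO. Each of the 5 β-Mfn1/2DKO libraries exceeded every Ctrl library, and β-Mfn2KO straddled the top of the Ctrl range. It rose by 0.64 ± 0.11 in β-Mfn1/2DKO (edgeR, BH, adjusted p = 0.000175). Col4a1 measured 3495 to 4884 normalized counts in Ctrl (median 4381), 3478, 3344, 4436 and 3673 in β-Mfn1KO, 4959, 4199, 4994, 4063 and 4538 in β-Mfn2KO and 5959, 5369, 5365, 7342 and 6850.2 in β-Mfn1/2DKO. Here too all β-Mfn1/2DKO values stood above all Ctrl values, while 2 of 4 β-Mfn1KO values lay below the lowest control. Its fold change of 0.54 ± 0.10, adjusted p = 0.000551 (edgeR, BH) passed the p but not the 1.5-fold threshold. Col4a2 missed the fold threshold without Ctrl replicate 4 (0.585) and without β-Mfn1/2DKO replicates 4 and 5 (0.51, adjusted p = 0.00306), and Col4a1 passed it without β-Mfn1/2DKO replicate 2 (0.61) or 3 (0.61) and with total-count scaling (0.67) (edgeR, BH). The ratio of Col4a1 to Col4a2 in RPKM was 1.5 ± 0.0366 in Ctrl, 1.57 ± 0.0896 in β-Mfn1KO, 1.52 ± 0.0837 in β-Mfn2KO and 1.40 ± 0.0304 in β-Mfn1/2DKO. The other 4 chains were scarce. Col4a5, a chain of the specialized network of kidney and other epithelia, measured 17.4 to 108 normalized counts in Ctrl (median 61.5), 16.7, 22, 29.8 and 16.6 in β-Mfn1KO, 31.0, 73.7, 78.1, 21.2 and 41.6 in β-Mfn2KO and 49.8, 56.2, 37.7, 85.8 and 105 in β-Mfn1/2DKO. Its β-Mfn1KO values were all low, and the β-Mfn1/2DKO values lay inside the Ctrl range (0.05 ± 0.36, adjusted p = 0.955 in β-Mfn1/2DKO, edgeR, BH). The sign of that difference turned without Ctrl replicate 1 (-0.14) or β-Mfn1/2DKO replicate 4 (-0.03) or 5 (-0.17). Col4a3, Col4a4 and Col4a6 had group means of 1.41 to 19.8 normalized counts, and none was called.

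Col4a1 and Col4a2 lie head to head, their gene bodies sharing 22 bases, and their promoters are shown since both were above Ctrl in all 5 β-Mfn1/2DKO libraries. RefSeq promoter windows of 300 bases (250 before and 50 after the start, build GRCm38.p6) were matched for 43 of the 60 members, in 47 entries. Windows are printed 5′ to 3′ on the strand of the gene, Col4a2 from chr8:11312555-11312854 on the plus strand and Col4a1 from chr8:11312777-11313076 on the minus strand, and they share 78 bases. Capitals mark the GC box GGGCGG and the CCAAT box on either strand, and the shared bases hold 1 GC box, counted for both genes.
Col4a2: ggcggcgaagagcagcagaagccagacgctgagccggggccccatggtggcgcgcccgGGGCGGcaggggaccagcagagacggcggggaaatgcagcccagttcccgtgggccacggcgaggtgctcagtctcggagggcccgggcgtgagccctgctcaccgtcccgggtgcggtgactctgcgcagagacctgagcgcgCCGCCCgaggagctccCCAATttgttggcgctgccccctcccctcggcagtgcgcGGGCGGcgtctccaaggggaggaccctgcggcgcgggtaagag
Col4a1: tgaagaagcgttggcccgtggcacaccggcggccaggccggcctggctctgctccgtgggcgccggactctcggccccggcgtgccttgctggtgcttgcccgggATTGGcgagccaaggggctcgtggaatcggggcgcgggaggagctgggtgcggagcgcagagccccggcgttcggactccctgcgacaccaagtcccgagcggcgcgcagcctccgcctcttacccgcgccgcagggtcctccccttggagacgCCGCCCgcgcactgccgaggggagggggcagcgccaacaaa
Col4a2 holds 3 GC boxes and 1 CCAAT box, Col4a1 1 of each, and neither holds TATAAA on either strand. Their GC contents were 73.7% and 74.0%, against a median of 52.7% over all promoters. A GC box was present in 28 of the 47 member entries (59.6%) and in 35.7% of all 32851 promoters, a CCAAT box in 15 (31.9%) and in 37.4%, and TATAAA in 5 (10.6%) and in 13.6%. These matches describe letters and not bound sites. Among the members with no matched entry were Col2a1, Col14a1, Col22a1, Lama4, Nid2, Lama3, Lama1, Col12a1, Col9a3, Lamc3, Fn1, Col1a1, Lamc1, Col26a1, Col5a2 and Col4a3.

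Among the laminins Lamb1, Lama4, Lama5 and Lamb3 were called higher in β-Mfn1/2DKO, and each lost its call without replicates 4 and 5. Lamb1, the β chain of most basement membrane laminins, measured 487 to 673 normalized counts in Ctrl (median 535), 424, 495, 469 and 529 in β-Mfn1KO, 660.1, 456, 627, 527 and 701 in β-Mfn2KO and 792, 671, 701, 1024 and 1065 in β-Mfn1/2DKO. In β-Mfn1/2DKO, 4 of 5 values lay above the highest control, and the lowest of them fell just inside the Ctrl range. It rose by 0.61 ± 0.13 in β-Mfn1/2DKO (edgeR, BH, adjusted p = 0.00157). Lamc1, its γ partner in nearly all of these trimers, measured 1337 to 1600.1 normalized counts in Ctrl (median 1496), 1401, 1235, 1458 and 1308 in β-Mfn1KO, 1478, 1427, 1599, 1425 and 1540.1 in β-Mfn2KO and 1725, 1654, 1859.9, 2076 and 2239.8 in β-Mfn1/2DKO. Each of the 5 β-Mfn1/2DKO values stood above all Ctrl values, by a margin under the fold threshold (0.36 ± 0.07, adjusted p = 0.000919, edgeR, BH). Lamb1 lost its call without Ctrl replicate 2 (0.57), 4 (0.58), β-Mfn1/2DKO replicate 4 (0.56) or 5 (0.52), without both of the latter (0.39, adjusted p = 0.0325), and with DESeq2 (0.58) (edgeR, BH).

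Lama4, the α chain of endothelial laminins, measured 134 to 352 normalized counts in Ctrl (median 259), 240.1, 247, 233 and 172 in β-Mfn1KO, 305, 192, 339, 269 and 304 in β-Mfn2KO and 372, 337, 284, 426 and 436 in β-Mfn1/2DKO. Of the β-Mfn1/2DKO values 3 exceeded the highest control, Ctrl replicate 6, and the lowest of the 20 values was a control's. It rose by 0.60 ± 0.18 (edgeR, BH, adjusted p = 0.0263), a call lost without Ctrl replicate 1 (0.48), 4 (0.53), β-Mfn1/2DKO replicate 4 (0.57) or 5 (0.54), without both of the latter and with DESeq2 (0.57). Lama5, the α chain of mature epithelial and vascular basement membranes, measured 361 to 539 normalized counts in Ctrl (median 397), 324, 283, 402 and 238 in β-Mfn1KO, 355, 413, 345, 405 and 477 in β-Mfn2KO and 502, 434, 457, 919 and 1463 in β-Mfn1/2DKO. Only β-Mfn1/2DKO replicates 4 and 5, those with high acinar markers, lay above the Ctrl range, and the other 3 lay within it. Its fold change of 0.84 ± 0.24, adjusted p = 0.0182 (edgeR, BH) became 0.46, adjusted p = 0.0998 without replicate 5 and 0.17, adjusted p = 0.566 without both. Lama1, Lama2 and Lama3 were not called, at -0.58 ± 0.50, 0.06 ± 0.28 and -0.55 ± 0.41 and highest values of 28.0, 279 and 80.4 normalized counts. Lamb3, the β chain of the laminin that anchors epithelia, measured 9.34 to 116 normalized counts in Ctrl (median 22.3), 0, 11, 12.4 and 27.7 in β-Mfn1KO, 14.1, 69.2, 24.2, 235 and 24.4 in β-Mfn2KO and 41.5, 25.8, 38.8, 586 and 865 in β-Mfn1/2DKO. Its high values were those of β-Mfn1/2DKO replicates 4 and 5 and, less so, β-Mfn2KO replicate 4, the 3 libraries with the highest acinar markers, and the other β-Mfn1/2DKO values lay inside the Ctrl range. The call in β-Mfn1/2DKO (2.59 ± 0.89, adjusted p = 0.0492, edgeR, BH) turned direction without replicates 4 and 5 (-0.51, adjusted p = 0.751). It was also lost, at adjusted p of 0.0528 to 0.207, without Ctrl replicate 1, 3, 5 or 6, any of the 4 β-Mfn1KO libraries, β-Mfn2KO replicate 2, or β-Mfn1/2DKO replicate 4 or 5. Lamb2, the β chain of vascular and synaptic laminins, measured 87.7 to 252 normalized counts in Ctrl (median 131), 94.9, 104, 114 and 139 in β-Mfn1KO, 144, 149.7, 162, 131 and 221 in β-Mfn2KO and 183, 171, 136, 238 and 208 in β-Mfn1/2DKO. Ctrl replicate 6 held the highest value of all libraries, and the difference of 0.38 ± 0.21, adjusted p = 0.241 passed both thresholds without it (0.62 ± 0.18, adjusted p = 0.0183; edgeR, BH). Lamc3 had at most 21.5 normalized counts and was at 0 in 4 of 6 controls.

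The proteins that link the networks were all higher in median in β-Mfn1/2DKO, and Hspg2 alone was called. Hspg2, or perlecan, the heparan sulphate proteoglycan of vascular basement membranes, measured 554 to 953 normalized counts in Ctrl (median 623), 589, 564, 628 and 427 in β-Mfn1KO, 835, 717, 832, 643 and 1057 in β-Mfn2KO and 999.9, 841, 791, 1402 and 1238 in β-Mfn1/2DKO. The β-Mfn1/2DKO values began inside the Ctrl range, and 3 of 5 lay above it. It rose by 0.61 ± 0.16 (edgeR, BH, adjusted p = 0.00981), a call lost without Ctrl replicate 1 (0.56), 2 (0.57), 4 (0.56), β-Mfn1/2DKO replicate 4 (0.51) or 5 (0.55), without both of the latter and with DESeq2 (0.58). Nid1, the nidogen that bridges laminin and collagen IV, measured 374 to 648 normalized counts in Ctrl (median 458), 363, 396, 392 and 338 in β-Mfn1KO, 522, 384, 509, 412 and 629 in β-Mfn2KO and 611, 549, 477, 767 and 784 in β-Mfn1/2DKO. Its β-Mfn1/2DKO values overlapped those of Ctrl, where replicate 6 was high (0.41 ± 0.15, adjusted p = 0.0592, edgeR, BH). Nid2, its paralogue, measured 98.2 to 255 normalized counts in Ctrl (median 164), 100.5, 121, 119 and 136 in β-Mfn1KO, 195, 125, 156, 141 and 164 in β-Mfn2KO and 226, 158, 165, 243 and 268 in β-Mfn1/2DKO. The groups overlapped (0.34 ± 0.19, adjusted p = 0.242, edgeR, BH), and as 8.45% of its exons overlap Rtraf, a gene on the opposite strand with a mean of 2089.55 counts, its level is uncertain where reads were not assigned by strand. Sparc, a collagen-binding glycoprotein of the matrix, measured 1023 to 3150.5 normalized counts in Ctrl (median 1410.3), 1203, 1083, 1172 and 1580.1 in β-Mfn1KO, 1312, 1166, 1701, 1211 and 3262 in β-Mfn2KO and 2169, 2332, 1925, 2919 and 2239.8 in β-Mfn1/2DKO. Its β-Mfn1/2DKO values lay above the other controls and below Ctrl replicate 6, and β-Mfn2KO replicate 5 was the highest library. With all libraries the difference was 0.54 ± 0.25, adjusted p = 0.168, and without Ctrl replicate 6 it was 0.85 ± 0.21, adjusted p = 0.00659 (edgeR, BH), past both thresholds. With the depth term its sign turned (-0.14, adjusted p = 1.0) (edgeR, BH). Fn1, or fibronectin, the cell-adhesive glycoprotein of interstitial matrix and plasma, measured 56.1 to 2098 normalized counts in Ctrl (median 92.7), 61.4, 55.0, 119 and 44.4 in β-Mfn1KO, 25.4, 62.5, 218, 50.8 and 2249 in β-Mfn2KO and 128, 177, 145, 472 and 118 in β-Mfn1/2DKO. Ctrl replicate 6 and β-Mfn2KO replicate 5 exceeded every other library. Its difference of -1.03 ± 0.96, adjusted p = 0.55 became 1.13 ± 0.85, adjusted p = 0.439 without Ctrl replicate 6 (edgeR, BH), so that the direction rested on that library.

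The 2 multiplexins, chondroitin or heparan sulphate-bearing collagens that attach basement membranes to the matrix beneath, both rose in β-Mfn1/2DKO. Col15a1 measured 183 to 371 normalized counts in Ctrl (median 249), 179, 143, 263 and 263 in β-Mfn1KO, 243, 252, 468, 265 and 232 in β-Mfn2KO and 489.5, 459.6, 459, 678 and 602 in β-Mfn1/2DKO. Each β-Mfn1/2DKO library exceeded every control, with replicates 4 and 5 the highest, and among the other genotypes β-Mfn2KO replicate 3 stood out. Col15a1 rose by 1.04 ± 0.19 (edgeR, BH, adjusted p = 0.000502) and was called in all 31 alternatives run, at 0.86 to 1.41. Col18a1, whose C-terminal fragment is endostatin, measured 347 to 575 normalized counts in Ctrl (median 492), 374, 316, 564 and 505 in β-Mfn1KO, 426, 467, 789, 336 and 644 in β-Mfn2KO and 854, 720.0, 622, 912 and 817 in β-Mfn1/2DKO. Again every β-Mfn1/2DKO library lay above all controls, while β-Mfn2KO reached from below the lowest control to the β-Mfn1/2DKO range. It rose by 0.71 ± 0.18 (edgeR, BH, adjusted p = 0.00712), a call lost with the depth term (0.90, adjusted p = 0.171).

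**Figure D4:**
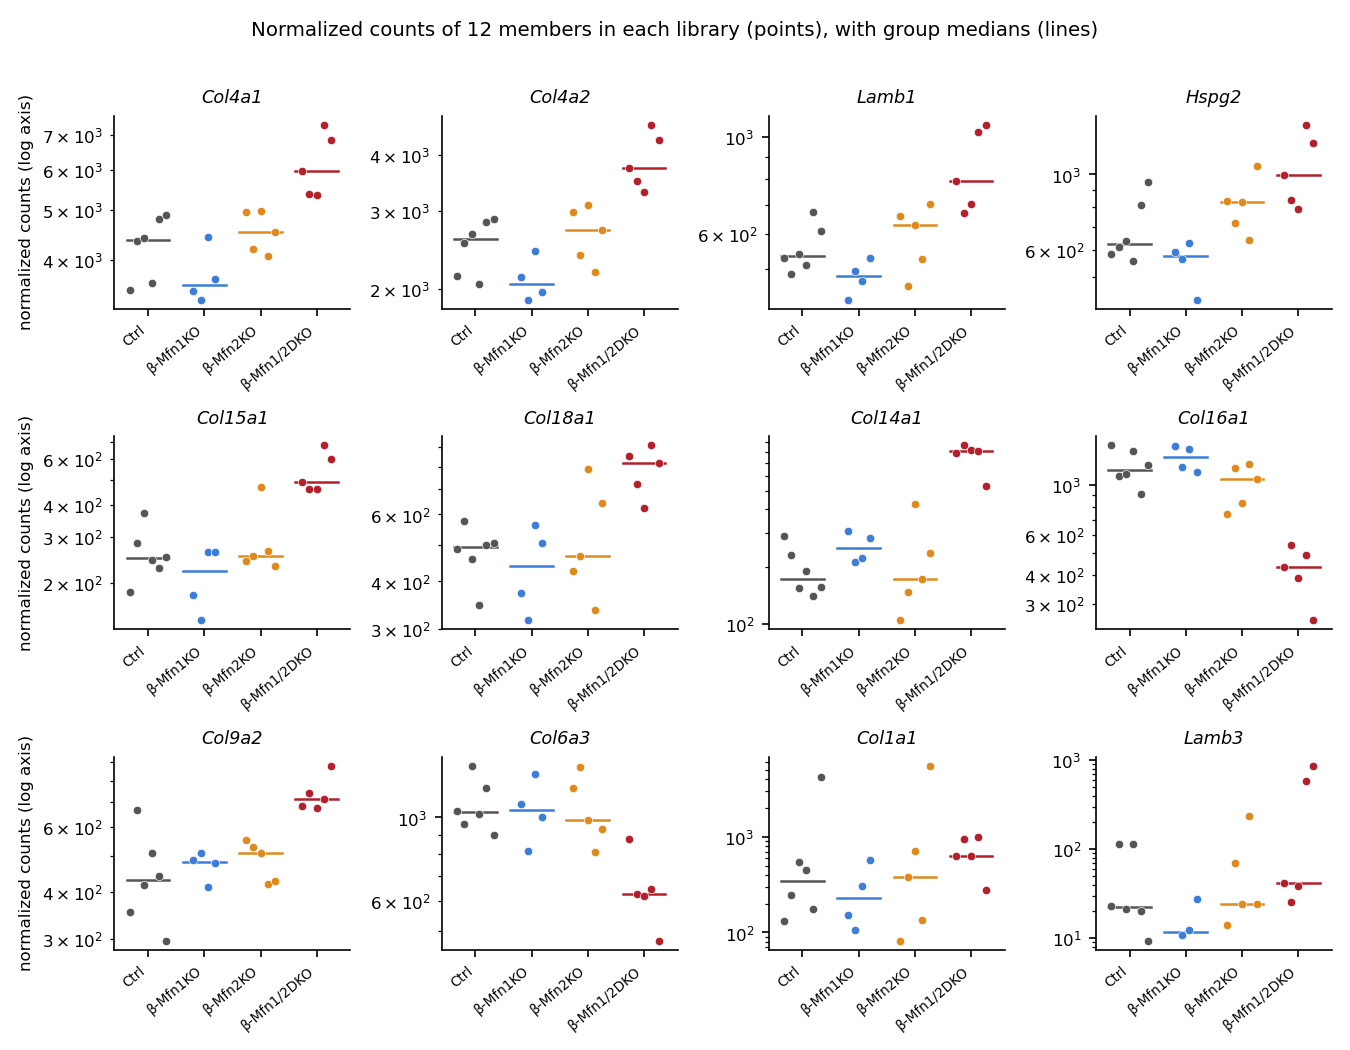
Normalized counts on a log axis of 12 members in each library (points) by genotype, with group medians (lines). In β-Mfn1/2DKO, Col14a1 lies at 534 to 870.3 and Col16a1 at 254 to 545, apart from the other genotypes, while Col1a1 and Lamb3 spread over single libraries.

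FACIT collagens decorate the surface of fibrils and form none of their own, and here they held the 2 members with the smallest adjusted p. Col14a1, which spaces collagen I fibrils in mature connective tissue, measured 139.9 to 291 normalized counts in Ctrl (median 173), 309.9, 212, 221 and 283 in β-Mfn1KO, 104, 147, 425, 173 and 235 in β-Mfn2KO and 794, 870.3, 827, 807 and 534 in β-Mfn1/2DKO. The 5 β-Mfn1/2DKO values stood above all 15 others, with replicate 5 the lowest of them. Col14a1 rose by 1.98 ± 0.25 (edgeR, BH, adjusted p = 6.1e-06), and was called in all 31 alternatives at 1.90 to 2.13. Col16a1, a short FACIT collagen that binds integrins and fibrillin-rich microfibrils, measured 912 to 1492 normalized counts in Ctrl (median 1165), 1482, 1202, 1443 and 1134 in β-Mfn1KO, 742, 1188, 829, 1239.7 and 1064 in β-Mfn2KO and 434, 545, 391, 492 and 254 in β-Mfn1/2DKO. The 5 β-Mfn1/2DKO values lay below all 15 others, and replicate 5 was the lowest. It fell by 1.51 ± 0.17 on the log2 scale (edgeR, BH, adjusted p = 1.4e-06), and was called in all 31 alternatives at -1.83 to -1.36.

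The Col16a1 promoter is shown as that of the member with the smallest adjusted p, which moved against Col4a2. Its window is chr4:130047590-130047889 on the plus strand of GRCm38.p6 from RefSeq, with capitals as above.
Col16a1: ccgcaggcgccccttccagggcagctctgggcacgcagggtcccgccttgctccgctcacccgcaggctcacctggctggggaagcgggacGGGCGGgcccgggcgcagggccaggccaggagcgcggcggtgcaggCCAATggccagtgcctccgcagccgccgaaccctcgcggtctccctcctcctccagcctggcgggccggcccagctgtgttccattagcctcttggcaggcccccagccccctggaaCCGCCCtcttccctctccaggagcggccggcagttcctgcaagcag
With 2 GC boxes, 1 CCAAT box, no TATAAA and 74.3% GC, the window held the same kinds of motif as those of Col4a2 and Col4a1. Those 2 windows held 3 and 1 GC boxes.

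Col9a2, a chain of the cartilage FACIT collagen IX, measured 296 to 666 normalized counts in Ctrl (median 431), 488, 511, 415 and 479.6 in β-Mfn1KO, 556, 532, 511, 422 and 429.9 in β-Mfn2KO and 685, 743, 675, 716 and 879.7 in β-Mfn1/2DKO. Each β-Mfn1/2DKO library exceeded all controls, of which replicate 2 came closest. It rose by 0.71 ± 0.14 (edgeR, BH, adjusted p = 0.000873), a call lost when all 4 libraries that stand apart were left out (0.56 ± 0.13, adjusted p = 0.00464). Col22a1, a collagen of tissue junctions, was near the limit of detection, with 0 to 3.51 normalized counts in Ctrl (median 1.45), 5.58, 0, 2.48 and 2.77 in β-Mfn1KO, 0, 4.47, 2.69, 1.52 and 7.92 in β-Mfn2KO and 7.69, 8.76, 3.18, 11.4 and 11.2 in β-Mfn1/2DKO. These values rest on 3 counts over the 6 Ctrl libraries and 100 over the 5 of β-Mfn1/2DKO, a ratio of 5.63 per effective library (95% exact interval 1.87 to 27.7, counting error only), and 4 of the 5 β-Mfn1/2DKO libraries lay above every control. The call came with a fitted 2.43 ± 0.75, adjusted p = 0.0284 (edgeR, BH). Col22a1 lost its call without Ctrl replicate 2 (adjusted p = 0.0738), 5 (adjusted p = 0.065), 6 (adjusted p = 0.0561), β-Mfn1/2DKO replicate 4 (adjusted p = 0.0567) or 5 (adjusted p = 0.0536) (edgeR, BH). Of the other FACIT members, Col20a1 (-0.15 ± 0.14), Col9a3 (0.10 ± 0.22), Col12a1 (-1.83 ± 0.93) and Col19a1 (-0.70 ± 0.87) were not called. Col9a1 had a count in 3 β-Mfn1/2DKO libraries only, at 1.06 normalized counts at most.

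Fibrillar collagens, the rods of interstitial matrix, had 2 members called higher and none lower, and several were high in the libraries rich in macrophage markers. Col5a3, a minor chain of collagen V, which sets fibril diameter, measured 72.7 to 182 normalized counts in Ctrl (median 128), 58.6, 99.0, 142 and 191 in β-Mfn1KO, 124, 165, 234, 83.4 and 293 in β-Mfn2KO and 271, 221, 241, 279 and 191 in β-Mfn1/2DKO. The β-Mfn1/2DKO values lay just above the Ctrl range. Among them lay β-Mfn2KO replicate 3, while replicate 5 of that genotype exceeded them all. The highest β-Mfn1KO value, in replicate 4, stood level with the lowest of them, at 191. Col5a3 rose by 0.97 ± 0.29 (edgeR, BH, adjusted p = 0.0233), a call lost without Ctrl replicate 1 (adjusted p = 0.0603) or 5 (adjusted p = 0.0579) and with the depth term (0.86, adjusted p = 0.499). Col11a2, a chain of the cartilage collagen XI, measured 424 to 748 normalized counts in Ctrl (median 669), 547, 621, 603 and 538 in β-Mfn1KO, 784, 561, 622, 582 and 640.0 in β-Mfn2KO and 1035, 782, 974, 906 and 1067 in β-Mfn1/2DKO. Every β-Mfn1/2DKO library stood above all controls, and 1 β-Mfn2KO value touched them. It rose by 0.59 ± 0.11 (edgeR, BH, adjusted p = 0.00085), at the fold threshold, and missed it without Ctrl replicate 2 (0.55), 4 (0.50), β-Mfn1/2DKO replicate 1 (0.58) or 5 (0.54) and with DESeq2 (0.56). Col27a1, a fibrillar collagen of cartilage and the most abundant fibrillar member by median RPKM in Ctrl, measured 1142 to 2279 normalized counts in Ctrl (median 1525), 2253, 2147, 1724 and 1361 in β-Mfn1KO, 2491, 2184, 996, 2155 and 1642 in β-Mfn2KO and 1499.6, 1122, 1130, 1481 and 1498 in β-Mfn1/2DKO. Its groups overlapped (-0.24 ± 0.19, adjusted p = 0.475, edgeR, BH). Col1a1 measured 131 to 4228 normalized counts in Ctrl (median 345), 151, 107, 308 and 577 in β-Mfn1KO, 81.8, 384, 705, 134 and 5544 in β-Mfn2KO and 632, 956, 630.5, 989 and 282 in β-Mfn1/2DKO. Apart from Ctrl replicate 6 and β-Mfn2KO replicate 5 the groups overlapped, with 4 of the 5 β-Mfn1/2DKO values above the other 5 controls. The difference of -0.45 ± 0.87, adjusted p = 0.774 turned to 1.2 ± 0.79, adjusted p = 0.362 without Ctrl replicate 6 (edgeR, BH). The other fibrillar members, Col1a2, Col2a1, Col3a1, Col5a1, Col5a2, Col11a1 and Col24a1, were not called, at -1.83 to 0.43. Without Ctrl replicate 6 and β-Mfn2KO replicate 5, Col1a2 (1.17 ± 0.29, adjusted p = 0.00612), Col5a2 (1.35 ± 0.36, adjusted p = 0.011), Col6a1 (1.13 ± 0.28, adjusted p = 0.00546) and Col6a2 (1.49 ± 0.31, adjusted p = 0.00151) were called higher (edgeR, BH). The part of macrophages, pericytes and fibroblasts in these values was not tested.

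Collagen VI forms beaded microfibrils next to basement membranes, and its chains moved apart. Col6a3, the large chain that joins Col6a1 and Col6a2 in the common trimer, measured 899.7 to 1371 normalized counts in Ctrl (median 1031), 1089, 817, 1306 and 1004 in β-Mfn1KO, 1199, 1358, 985, 812 and 933 in β-Mfn2KO and 875, 626, 619, 647 and 472 in β-Mfn1/2DKO. Every β-Mfn1/2DKO library lay below all controls, and replicate 1 came closest, at 875. It fell by 0.74 ± 0.15 on the log2 scale (edgeR, BH, adjusted p = 0.00121), and with the depth term it stood at -0.30, adjusted p = 0.655. Col6a4, a paralogue of Col6a3, measured 23.3 to 63.5 normalized counts in Ctrl (median 45.2), 30.7, 46.7, 24.8 and 19.4 in β-Mfn1KO, 59.2, 20.1, 24.2, 49.3 and 45.6 in β-Mfn2KO and 113, 63.2, 133, 98.8 and 61.1 in β-Mfn1/2DKO. In β-Mfn1/2DKO 3 of 5 values exceeded all controls, and the other 2 lay at the upper end of the Ctrl range. Col6a4 rose by 1.05 ± 0.30 (edgeR, BH, adjusted p = 0.0173), a call lost with the depth term (0.57, adjusted p = 0.729). Col6a6, the most abundant chain of the class per length, measured 2995 to 4149.8 normalized counts in Ctrl (median 3649), 2247, 2367, 2854 and 2647 in β-Mfn1KO, 4017, 3666, 4318, 3076 and 3007 in β-Mfn2KO and 2856, 2817, 3114, 2442 and 3000.5 in β-Mfn1/2DKO. Of the β-Mfn1/2DKO values 3 lay below the lowest control, as did all 4 β-Mfn1KO values, and the β-Mfn1/2DKO difference of -0.34 ± 0.10, adjusted p = 0.0259 (edgeR, BH) stayed under 1.5-fold and turned sign with the depth term (0.06, adjusted p = 1.0). Col6a1 and Col6a2 followed Ctrl replicate 6 and β-Mfn2KO replicate 5, at 872 and 758 normalized counts for Col6a1, with fold changes of -0.10 ± 0.61 and 0.14 ± 0.65. Col6a5 had at most 14.6 normalized counts in any library.

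**Figure D5:**
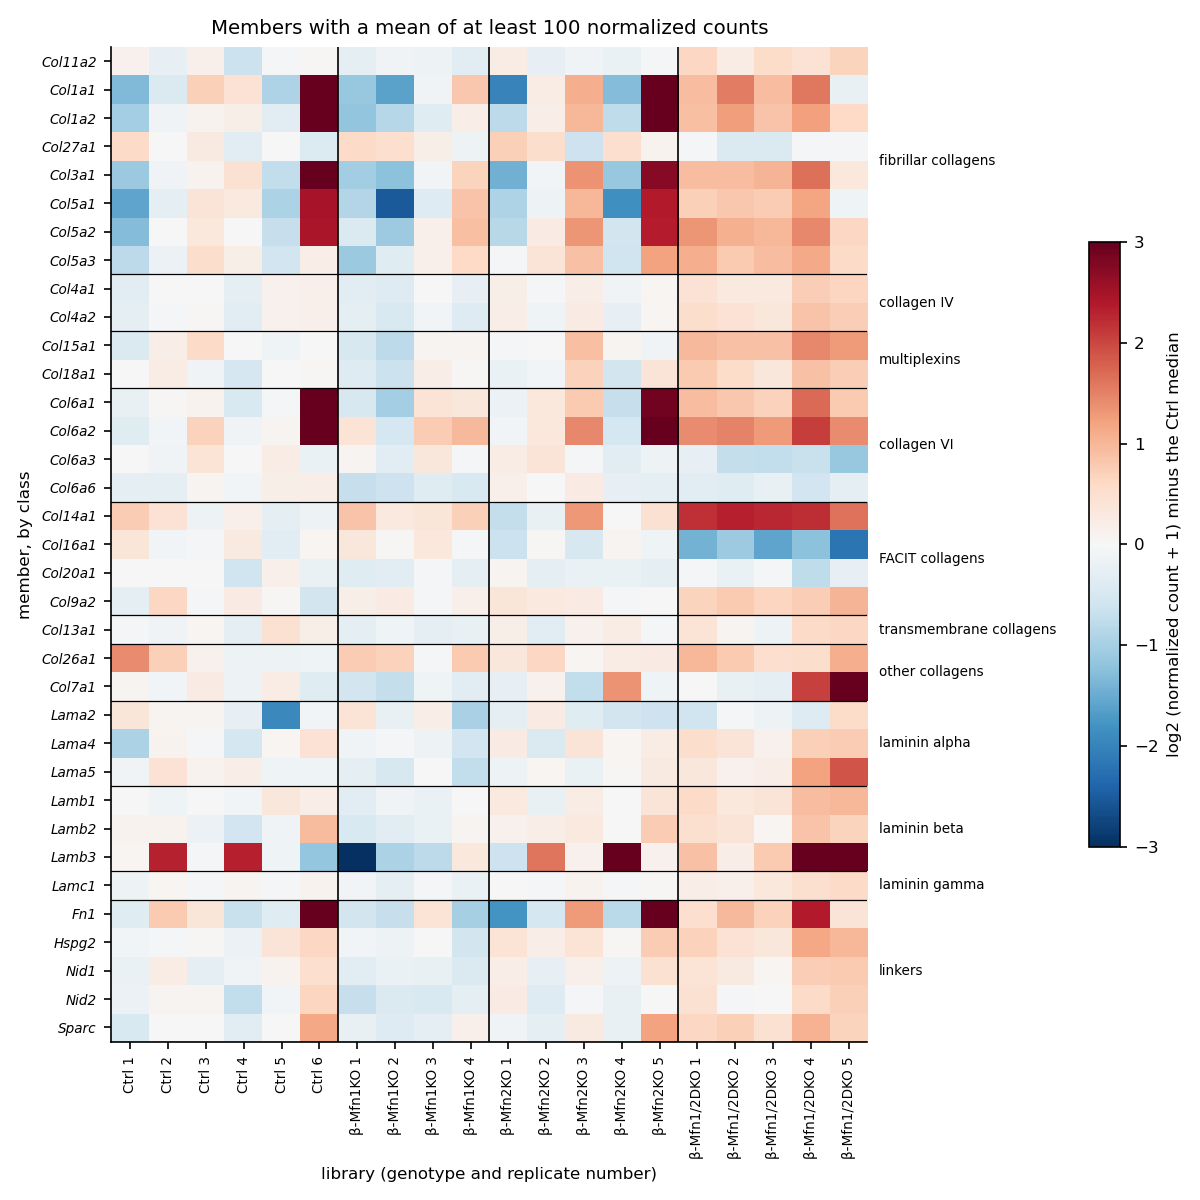
Log2 of the normalized count plus 1, minus the Ctrl median, for 35 of the 36 members that average 100 or more (rows, by class) in 20 libraries (columns, by genotype). Ctrl replicate 6 and β-Mfn2KO replicate 5 are high in Col1a1, Col1a2, Col3a1, Col5a1, Col5a2, Col6a1, Col6a2 and Fn1, while Col14a1 is high and Col16a1 low in all 5 β-Mfn1/2DKO libraries, on colours that end at 3 either way.

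Among the remaining collagens, Col7a1, which forms the anchoring fibrils of stratified epithelia, measured 137 to 207 normalized counts in Ctrl (median 176), 120.0, 107, 161 and 139 in β-Mfn1KO, 147, 192, 105, 447 and 161 in β-Mfn2KO and 175, 149, 143, 734 and 1891 in β-Mfn1/2DKO. Its high values were those of β-Mfn1/2DKO replicates 4 and 5 and β-Mfn2KO replicate 4, and the other 3 β-Mfn1/2DKO values lay inside the Ctrl range. The call (1.81 ± 0.53, adjusted p = 0.0215, edgeR, BH) was lost without β-Mfn1/2DKO replicate 5 (0.77, adjusted p = 0.233) and turned direction without replicates 4 and 5 (-0.16, adjusted p = 0.813). Col28a1, a collagen of nerve sheaths, measured 28.1 to 87.2 normalized counts in Ctrl (median 66.7), 61.4, 41.2, 49.7 and 63.8 in β-Mfn1KO, 42.3, 31.3, 59.2, 50 and 46.2 in β-Mfn2KO and 119, 101, 83.6, 90.5 and 79.7 in β-Mfn1/2DKO. In β-Mfn1/2DKO 3 values lay above all controls, and against Ctrl the difference of 0.57 ± 0.22, adjusted p = 0.0883 passed both thresholds without Ctrl replicate 6 (0.67 ± 0.23, adjusted p = 0.0461; edgeR, BH) and with total-count scaling (0.705). Col8a2, a short-chain network collagen, measured 43.7 to 122.7 normalized counts in Ctrl (median 63.1), 114, 90.7, 72.0 and 94.2 in β-Mfn1KO, 113, 134, 88.8, 48.5 and 40.3 in β-Mfn2KO and 135, 83.0, 87.1, 107 and 107 in β-Mfn1/2DKO. Its groups overlapped (0.43 ± 0.29, adjusted p = 0.378, edgeR, BH). Col10a1, Col26a1 and Col8a1 were not called, at 0.70 ± 0.64, 0.36 ± 0.24 and 0.50 ± 0.46. None of the 4 transmembrane collagens, which sit in the plasma membrane with a shed collagenous ectodomain, was called by edgeR or DESeq2 in β-Mfn1/2DKO, and 0 had an unadjusted p under 0.05. Col13a1, found at cell adhesions, measured 382 to 641 normalized counts in Ctrl (median 468), 385, 426, 382 and 399 in β-Mfn1KO, 525, 371, 511, 542 and 446 in β-Mfn2KO and 618, 494, 418, 701 and 716 in β-Mfn1/2DKO. The β-Mfn1/2DKO values overlapped Ctrl, with 2 above it (0.27 ± 0.14, adjusted p = 0.195, edgeR, BH). Col25a1, a collagen of neurons, measured 10.5 to 43.6 normalized counts in Ctrl (median 26.9), 47.5, 24.7, 52.2 and 22.2 in β-Mfn1KO, 31.0, 31.3, 21.5, 21.2 and 33.0 in β-Mfn2KO and 40.9, 26.7, 26.5, 20.8 and 19.3 in β-Mfn1/2DKO. All groups overlapped (-0.10 ± 0.31, adjusted p = 0.874, edgeR, BH), and its sign turned with total-count scaling (0.04) and without Ctrl replicate 1 (0.05) or 3 (0.04) or β-Mfn1/2DKO replicate 4 (0.003). Col17a1 and Col23a1 had at most 9.12 and 11 normalized counts.

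Against β-Mfn2KO, which asks what loss of Mfn1 adds where Mfn2 is already lost, β-Mfn1/2DKO islets again held more Col14a1, Col15a1, Col9a2, Lama5 and Col6a4 and less Col16a1 and Col6a3, and, not called against Ctrl, more Col28a1. This comparison shares its β-Mfn1/2DKO libraries with the one above, so the lists are not independent. Col16a1 fell by 1.27 ± 0.17 on the log2 scale (edgeR, BH, adjusted p = 2.49e-05), and Col14a1 rose by 1.83 ± 0.26 (adjusted p = 3.71e-05), both in all 32 alternatives. Col28a1 rose by 1.04 ± 0.23 (adjusted p = 0.0036) and Col6a4 by 1.22 ± 0.31 (adjusted p = 0.0095), with no overlap between the groups (edgeR, BH). The remaining changes were those of Col6a3 (-0.70 ± 0.15, adjusted p = 0.00339), Col15a1 (0.89 ± 0.20, adjusted p = 0.00361), Col9a2 (0.60 ± 0.14, adjusted p = 0.00642) and Lama5 (0.91 ± 0.25, adjusted p = 0.0177) (edgeR, BH). In all, 8 members were called (13.3%), against 3.84% of all genes, 6 higher (10%, against 2.05%) and 2 lower (3.33%, against 1.79%), with a median of 0.32 over the members and 0.00 over all genes. Col4a1, Col4a2, Lamb1, Lamc1, Col11a2 and Col18a1 had an adjusted p under 0.05 at 0.36 to 0.58, under the fold threshold. Without β-Mfn1/2DKO replicates 4 and 5, 5 members were called, Col6a3 (-0.55, adjusted p = 0.0376), Col9a2 (0.55, adjusted p = 0.0321) and Lama5 (0.23, adjusted p = 0.398) being lost (edgeR, BH). Without Ctrl replicate 6 and β-Mfn2KO replicate 5 there were 13, Sparc, Col6a1, Col6a2, Col11a2, Col18a1 and Lamb1 being added and Col9a2 lost. Without β-Mfn1/2DKO replicate 2 or replicate 3 alone there were 13 each. With the depth term Col6a3 (-0.43, adjusted p = 0.194), Col28a1 (0.98, adjusted p = 0.0663), Col6a4 (0.99, adjusted p = 0.171) and Lama5 (0.77, adjusted p = 0.213) were not called (edgeR, BH). In the deep libraries alone Col6a3 (adjusted p = 0.311), Col6a4 (adjusted p = 0.125) and Lama5 (adjusted p = 0.373) were not (edgeR, BH). Of β-Mfn2KO that fit holds only replicates 4 and 5, which stand apart in acinar and macrophage markers. Lama5 lost its call without β-Mfn1/2DKO replicate 5 (0.53) and Col9a2 without β-Mfn2KO replicate 4 (0.55), 5 (0.58) or β-Mfn1/2DKO replicate 5 (0.53). Col9a2 also lost its call with DESeq2 and with the size factors of DESeq2, and Lama5 with only the groups compared. Scaling by total counts moved the median of genes with at least 100 normalized counts from 0.03 to 0.13 and left Col6a3 at -0.58, under the fold threshold. Of the 14 endothelial markers 8 were higher here as well (median 0.63), 5 without β-Mfn1/2DKO replicate 4, and 0 by edgeR without replicates 4 and 5 (median 0.46), where 12 had an unadjusted p under 0.05, while DESeq2 called 7 with all libraries. Of 16 pericyte and fibroblast markers 4 were higher (median 0.35), and 2 without replicates 4 and 5, and 8 of 10 β-cell markers were lower (median -1.03). The 11 macrophage markers had a median of -0.61, with 3 lower at an unadjusted p under 0.05. Of these markers edgeR called 1 lower, C1qa, and 0 without replicates 4 and 5, and DESeq2 called 1 lower. The acinar markers had the largest median, 2.53, with 14 of 16 higher at an unadjusted p under 0.05, 0 called higher by edgeR and 8 by DESeq2, and it was -1.94 without β-Mfn1/2DKO replicates 4 and 5. Without β-Mfn2KO replicate 4, 15 of them were called higher, and without β-Mfn1/2DKO replicate 1, 2 or 3 there were 4, 2 and 5.

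With loss of Mfn2 alone no member was called, in a comparison whose controls serve the other genotypes as well. In β-Mfn2KO against Ctrl, edgeR called 0 of 60 members, 0 had an unadjusted p under 0.05, and DESeq2 called 0, against 15 genes (0.0524%) called and 1208 (4.22%) with an unadjusted p under 0.05 in all. The median over the members was 0.09, against 0.02 over all genes, and 36 members lay above 0 and 23 below, Col9a1 being at 0 in both groups. Col4a1 stood at a log2 fold change of 0.09 ± 0.10, Col4a2 at 0.08 ± 0.11, Lamb1 at 0.09 ± 0.13, Col16a1 at -0.24 ± 0.16 and Col14a1 at 0.15 ± 0.26. Without β-Mfn2KO replicate 5 the median over the members was -0.08, without it and Ctrl replicate 6 it was 0.06, and without all 4 libraries that stand apart 0.05. Lists of acinar, macrophage, pericyte and fibroblast, and endothelial markers had medians of 1.11, 0.27, 0.19 and 0.06, with 0 called by edgeR or DESeq2 and 0 at an unadjusted p under 0.05, the acinar one being -0.20 without β-Mfn2KO replicate 4 and the macrophage one -0.39 without replicate 5. With β-Mfn1/2DKO replicates 4 and 5 left out of the fit, 2 acinar markers were higher at an unadjusted p under 0.05 (edgeR). Loss of Mfn1 alone gave mostly lower values, none of which passed adjustment. In β-Mfn1KO against Ctrl, edgeR and DESeq2 each called 0 of 60 members, against 7 genes (0.0244%) in all. An unadjusted p under 0.05 was reached by 9 members (15.0%), all lower in β-Mfn1KO, against 2130 genes (7.44%). They were Col6a6 (-0.51 ± 0.11, adjusted p = 0.282; edgeR, BH), Col4a5 (-1.58 ± 0.47, adjusted p = 0.514), Nid2, Col19a1, Col12a1, Col4a2, Nid1, Col1a2 and Fn1. For Col6a6 all 4 β-Mfn1KO values lay below the lowest control. For Col12a1, Col1a2 and Fn1 the controls include the high Ctrl replicate 6. Of all members 44 lay below 0 and 15 above, 44 or 45 below under the other scalings, with a median of -0.27 against 0.00 over all genes, and of -0.11 without Ctrl replicate 6. Markers of other cells went both ways. Those of α-cells and of δ- and PP-cells had medians above 0, at 0.09 and 0.12. Below 0 were the medians of -1.62 for the 16 acinar, -0.50 for the 11 macrophage, -0.21 for the 16 pericyte and fibroblast and -0.15 for the 14 endothelial markers. Of these lists edgeR and DESeq2 called 0, and at an unadjusted p under 0.05 edgeR had 0, 1, 1 and 2 lower and, of pericyte and fibroblast markers, 1 higher. With β-Mfn1/2DKO replicates 4 and 5 left out of the fit, 9 acinar markers were lower at an unadjusted p under 0.05 and 0 were called (edgeR). Without Ctrl replicate 6 the macrophage median was -0.003 and that of pericytes and fibroblasts -0.07, which was -0.37 without β-Mfn1KO replicate 3, and the endothelial one was -0.08 without Ctrl replicate 5. The part of these cells was not tested.

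The interaction asks whether loss of Mfn1 acts alike with and without Mfn2, as the difference between β-Mfn1/2DKO over β-Mfn2KO and β-Mfn1KO over Ctrl. For Col4a2, Col4a1 and Lamb1 the fold change with Mfn1 loss lay below 0 where Mfn2 was present and above 0 where it was absent. For Col4a2 the difference was 0.80 ± 0.16 (edgeR, BH, adjusted p = 0.00375), from -0.25 ± 0.12 in β-Mfn1KO and 0.55 ± 0.11 in β-Mfn1/2DKO. For Col4a1 it was 0.63 ± 0.15, adjusted p = 0.0137, from -0.19 ± 0.11 and 0.44 ± 0.10, and for Lamb1 0.73 ± 0.19, adjusted p = 0.0253, from -0.22 ± 0.14 and 0.52 ± 0.13 (edgeR, BH). For Col16a1 it was negative, at -1.39 ± 0.24, adjusted p = 0.00128, and for Col14a1 1.43 ± 0.38, adjusted p = 0.0245 (edgeR, BH). Col11a2 (0.72 ± 0.18, adjusted p = 0.0153), Col15a1 (1.19 ± 0.30, adjusted p = 0.0179), Col6a4 (1.80 ± 0.48, adjusted p = 0.0272), Col28a1 (1.29 ± 0.35, adjusted p = 0.0285), Lama5 (1.33 ± 0.38, adjusted p = 0.0358) and Col4a5 (2.07 ± 0.60, adjusted p = 0.0425) completed the list (edgeR, BH). That made 11 of 60 members (18.3%), against 2.74% of all genes, 10 of them higher (16.7%, against 1.36%) and 1 lower (1.67%, against 1.38%), with a median of 0.69 over the members and 0.03 over all genes. Of these, Col16a1, Col4a2 and Col11a2 were called in all 30 alternatives. For Col4a5 the β-Mfn1KO values were low, at 16.6 to 29.8 normalized counts. Col4a1 lost its call without β-Mfn1KO replicate 2 (0.58) or β-Mfn1/2DKO replicate 4 (0.58), Col14a1 without β-Mfn1KO replicate 2 (adjusted p = 0.0616), 3 (adjusted p = 0.0535) or β-Mfn2KO replicate 2 (adjusted p = 0.0505), Col15a1 without β-Mfn1KO replicate 2 (adjusted p = 0.0515) and Lamb1 without β-Mfn1KO replicate 1 (adjusted p = 0.0624) or β-Mfn2KO replicate 2 (adjusted p = 0.0502) (edgeR, BH). Col6a4 lost it without β-Mfn1KO replicate 1 (adjusted p = 0.0521), 3 (adjusted p = 0.0593) or 4 (adjusted p = 0.0628), and Col28a1 without Ctrl replicate 5 (adjusted p = 0.0515), 6 (adjusted p = 0.0512), β-Mfn1KO replicate 2 (adjusted p = 0.0712), 3 (adjusted p = 0.0559), β-Mfn2KO replicate 2 (adjusted p = 0.0577) or β-Mfn1/2DKO replicate 1 (adjusted p = 0.0502) (edgeR, BH). Lama5 was lost at adjusted p of 0.0506 to 0.0802 without any of 10 libraries (Ctrl 2, 3 and 4, β-Mfn1KO 1, 2 and 4, β-Mfn2KO 1, 2 and 4, and β-Mfn1/2DKO 4), and Col4a5 at 0.0546 to 0.0912 without any of 12 (Ctrl 2, 3, 5 and 6, β-Mfn1KO 1, 2 and 4, β-Mfn2KO 1, 4 and 5, and β-Mfn1/2DKO 4 and 5). Without β-Mfn1/2DKO replicates 4 and 5, 6 members were called, Col4a1 (adjusted p = 0.0505), Lamb1 (adjusted p = 0.0951), Lama5 (adjusted p = 0.0782), Col4a5 (adjusted p = 0.151) and Col15a1 (adjusted p = 0.0627) being lost (edgeR, BH). With the depth term there were 6 as well, without Col14a1 (adjusted p = 0.0662), Lamb1 (adjusted p = 0.112), Col28a1 (adjusted p = 0.109), Col6a4 (adjusted p = 0.134) and Lama5 (adjusted p = 0.162) (edgeR, BH). Replicate number as a block ended the calls of Col4a1 (0.56, adjusted p = 0.0214), Col6a4 (adjusted p = 0.0515) and Col28a1 (adjusted p = 0.0752), and a term for sex those of Lama5 (adjusted p = 0.0506) and Col4a5 (adjusted p = 0.0503) (edgeR, BH). By edgeR, without β-Mfn1KO replicate 1, β-Mfn1KO replicate 2 or β-Mfn2KO replicate 2 there were 7, 5 and 7. Scaling by total counts moved the median of genes with at least 100 normalized counts from 0.02 to 0.15, and 75.4% in place of 49.5% of all calls were then higher. Of the 14 endothelial markers 8 were called higher, with a median of 0.77 (from -0.15 in β-Mfn1KO over Ctrl and 0.63 in β-Mfn1/2DKO over β-Mfn2KO), and 5 without β-Mfn1/2DKO replicates 4 and 5. Of the 10 β-cell markers 8 were called lower, with a median of -1.01, and 6 without that pair. Pericyte and fibroblast markers, 16 in all, had a median of 0.73. Of them 4 were higher at an unadjusted p under 0.05, with 0 called by edgeR and 2 by DESeq2. The median of the 16 acinar markers was 4.10, and -0.45 without the pair, with 14 higher at an unadjusted p under 0.05, 0 called higher by edgeR and 12 by DESeq2. By edgeR 12 were higher without β-Mfn2KO replicate 4 and 1 without β-Mfn1/2DKO replicate 1, 2 or 3. The part of these cells in either comparison was not tested.

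Other genes of the matrix were taken from 6 further lists, in β-Mfn1/2DKO against Ctrl. Of 18 other basement membrane components 2 rose and 2 fell (median 0.26), of 26 interstitial glycoproteins and proteoglycans 2 rose and 2 fell (0.49), of 31 genes for collagen folding, modification and cross-linking 0 rose and 2 fell (-0.12; 0 and 2 by DESeq2, 4 and 11 at an unadjusted p under 0.05), of 30 matrix proteases and inhibitors 5 rose and 1 fell (0.27), of 28 integrins and other receptors 4 rose and 1 fell (0.28), and of 20 genes of TGF-β signalling 6 rose and 0 fell (0.46; 6 and 0 by DESeq2, 13 and 0 at an unadjusted p under 0.05). Of all genes 3.24% rose and 1.97% fell, and their median was 0.06. Some of these counts moved by over 1.5 times without 1 library. Of the receptors 1 rose without Ctrl replicate 3 or 5 or β-Mfn1/2DKO replicate 5, 2 rose without Ctrl replicate 1, 2 or 4 or β-Mfn1/2DKO replicate 4, 0 fell without β-Mfn1/2DKO replicate 1, 2 or 3, and 2 fell without β-Mfn2KO replicate 5. Of the proteases 3 rose without Ctrl replicate 1, 2, 3 or 4 or β-Mfn1/2DKO replicate 4 or 5 and 8 without β-Mfn2KO replicate 5, while 2 fell without Ctrl replicate 2 or β-Mfn2KO replicate 5 and 0 without Ctrl replicate 6, any β-Mfn1KO library or any β-Mfn1/2DKO library. Of the interstitial genes 4 rose and 1 fell without Ctrl replicate 6, and 1 rose without β-Mfn1/2DKO replicate 4 or 5. Of the folding genes 1 rose without Ctrl replicate 6 or β-Mfn1/2DKO replicate 3, and 1 fell without Ctrl replicate 1. With β-Mfn1/2DKO replicates 4 and 5 left out, 1 receptor rose and 1 fell, 1 other basement membrane gene rose and 1 fell, and 3 genes of the TGF-β list rose and 0 fell (10 and 0 at an unadjusted p under 0.05). By edgeR on the same libraries, of the interstitial genes 0 rose and 1 fell (5 and 2 at an unadjusted p under 0.05), of the folding genes 0 rose and 2 fell (3 and 9), and of the proteases 1 rose and 0 fell (7 and 2).

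Smoc1, a calcium-binding basement membrane glycoprotein, lay in every β-Mfn1/2DKO library above all 15 others (1.63 ± 0.20, adjusted p = 3.74e-06, edgeR, BH). Fbln5, an elastic fibre protein, fell (-1.23 ± 0.30, adjusted p = 0.00557), as did Frem2 (-0.60 ± 0.19, adjusted p = 0.035), and Ntn1 rose (1.68 ± 0.47, adjusted p = 0.016) on β-Mfn1/2DKO replicates 4 and 5, without which it stood at 0.25 ± 0.31, adjusted p = 0.703 (edgeR, BH). Ntn1 lost its call without β-Mfn1/2DKO replicate 5 (adjusted p = 0.142), and Frem2 at -0.48 to -0.60 without Ctrl replicate 1, 2 or 4, β-Mfn2KO replicate 3 or 5, or β-Mfn1/2DKO replicate 1, 2, 3 or 4 (edgeR, BH). The count of other basement membrane genes that rose or fell was then 1 in place of 2. Emilin1, an elastic fibre glycoprotein more abundant per length in Ctrl than any member at 31.1 ± 7.20 RPKM, lay in β-Mfn1/2DKO below all others (-1.67 ± 0.17, adjusted p = 6.97e-07, edgeR, BH). Sparcl1 rose (0.64 ± 0.14, adjusted p = 0.00244), as did the scarce Vtn (1.87 ± 0.50, adjusted p = 0.0117), and Ogn was called lower on Ctrl replicate 6 alone, at 308 normalized counts against 0 in the other 5 controls (edgeR, BH). Without that library Ogn stood at 1.91 ± 3.89, adjusted p = 0.785, and Sparcl1 missed the fold threshold without β-Mfn1/2DKO replicate 4 (0.57) or 5 (0.56) (edgeR, BH).

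Loxl2, a lysyl oxidase that cross-links collagen IV, fell in β-Mfn1/2DKO with no overlap (-0.84 ± 0.07, adjusted p = 7.03e-08), and P3h1, a prolyl 3-hydroxylase of collagen, fell too (-0.63 ± 0.10, adjusted p = 0.000109; edgeR, BH), but under 1.5-fold without Ctrl replicate 1 (-0.58) or 2 (-0.57). Mmp28, a secreted metalloprotease, stood in β-Mfn1/2DKO above all other values (2.96 ± 0.32, adjusted p = 1.18e-06, edgeR, BH). Timp3, the matrix-bound inhibitor of metalloproteases (0.63 ± 0.17, adjusted p = 0.0135), Adamts1 (0.66 ± 0.22, adjusted p = 0.0388) and Mmp15 (1.06 ± 0.25, adjusted p = 0.00497) also rose, Mmp15 standing at 0.35 ± 0.15, adjusted p = 0.154 without β-Mfn1/2DKO replicates 4 and 5 (edgeR, BH). Timp3 lost its call without Ctrl replicate 1 (0.52), 3 (0.55) or β-Mfn1/2DKO replicate 5 (0.51). Adamts1 lost it without Ctrl replicate 2 (adjusted p = 0.0526), 3 (0.55), 4 (adjusted p = 0.0914), β-Mfn1/2DKO replicate 1 (adjusted p = 0.0645), 4 (0.56) or 5 (0.54) (edgeR, BH).

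Among receptors, Itga2, the α chain of a collagen-binding integrin, fell (-0.69 ± 0.19, adjusted p = 0.0156), and Itga7 (1.05 ± 0.32, adjusted p = 0.0262) and Itga5, the α chain of the fibronectin receptor (0.74 ± 0.24, adjusted p = 0.0342), rose (edgeR, BH). Itga2 lost its call without β-Mfn1/2DKO replicate 1 (adjusted p = 0.0525), 2 (-0.56) or 3 (adjusted p = 0.0516), and Itga7 without Ctrl replicate 5 (adjusted p = 0.0553), 6 (adjusted p = 0.0508) or β-Mfn1/2DKO replicate 1 (0.57) (edgeR, BH). Itga5 lost it without Ctrl replicate 2 (adjusted p = 0.0727), 3 (adjusted p = 0.0668), 4 (adjusted p = 0.0654), 5 (adjusted p = 0.0801), β-Mfn1/2DKO replicate 4 (0.55) or 5 (adjusted p = 0.0635) (edgeR, BH). Itgb4, the integrin chain that binds the epithelial laminin of Lamb3, was high where Lamb3 was, in β-Mfn1/2DKO replicates 4 and 5 and β-Mfn2KO replicate 4, and its rise of 3.27 ± 0.98, adjusted p = 0.0225 was -0.72 ± 0.71, adjusted p = 0.634 without the β-Mfn1/2DKO pair (edgeR, BH). The call was also lost without Ctrl replicate 1 (adjusted p = 0.0511), 3 (adjusted p = 0.0505) or β-Mfn1/2DKO replicate 5 (adjusted p = 0.156) (edgeR, BH). Replicate number as a block ended the calls of Itga7, Itgb4 and Ntn1, and a term for sex ended that of Itgb4. In the TGF-β list the genes that rose included Eng (0.80 ± 0.10, adjusted p = 1.12e-05) and Acvrl1 (0.73 ± 0.15, adjusted p = 0.00103), receptors of endothelial cells, and the latent TGF-β binding proteins Ltbp4 (0.75 ± 0.15, adjusted p = 0.000795) and Ltbp2 (1.10 ± 0.26, adjusted p = 0.00414; edgeR, BH). Eng is also 1 of the 14 endothelial markers. Without β-Mfn1/2DKO replicates 4 and 5 Ltbp4 (0.57 ± 0.15, adjusted p = 0.0134) and Acvrl1 (0.58 ± 0.15, adjusted p = 0.016) were under the fold threshold (edgeR, BH). With the depth term, of the matrix genes named from these lists, Loxl2, Mmp28, Emilin1, Sparcl1, Ltbp4 and Ogn were called, and the sign of Frem2 turned (0.03).

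Markers of other cells in β-Mfn1/2DKO against Ctrl were counted the same way. Of 16 pericyte and fibroblast markers 5 rose (median 0.58), among them Kcnj8 (1.26 ± 0.20, adjusted p = 0.000128), Abcc9 (1.16 ± 0.20), Pi16 (0.97 ± 0.18) and Des (0.86 ± 0.24; edgeR, BH), with Pdgfrb the most abundant and Pdgfra, Dpt, Higd1b and Cnn1 at 0 in some library. Their sums measured 1175 to 2820.5 in Ctrl (median 1317), 1064, 1048, 1448 and 1245 in β-Mfn1KO, 1447, 1360.3, 1973, 1249 and 3244 in β-Mfn2KO and 1993, 1968, 1648, 2902 and 2157 in β-Mfn1/2DKO normalized counts. All 5 β-Mfn1/2DKO sums lay above every control but replicate 6. Without β-Mfn1/2DKO replicate 4, 3 of these markers rose and Des stood at 0.59 ± 0.21, adjusted p = 0.0646, and without β-Mfn2KO replicate 5, 1 marker fell (edgeR, BH). Of 9 Schwann cell markers 2 rose, Cryab (1.95 ± 0.51) and Foxd3 (1.64 ± 0.47), while Sox10, S100b, Gfap and Cdh19 were at 0 in some library (edgeR, BH). Cryab lost its call without β-Mfn1/2DKO replicate 5 (adjusted p = 0.0689) and Foxd3 without β-Mfn1/2DKO replicate 1 (adjusted p = 0.0718) (edgeR, BH). Of 11 macrophage markers edgeR and DESeq2 called 0 each, 1 was lower at an unadjusted p under 0.05, 1 was called lower without Ctrl replicate 1 or 5, and Mrc1 was at 0 in some library. Their sums measured 4849.6 to 28905 in Ctrl (median 5926), 4927, 5353, 6221 and 6749.9 in β-Mfn1KO, 5738, 5812, 7091, 4951 and 39090 in β-Mfn2KO and 6354, 6905, 5454, 10566 and 5228 in β-Mfn1/2DKO normalized counts. Of 16 acinar markers 14 rose (median 3.69), and 0 did without β-Mfn1/2DKO replicate 5 (median 2.21) or without replicates 4 and 5 (median -0.87, with 0 higher at an unadjusted p under 0.05), while Bhlha15, a transcription factor of secretory cells, fell in both cases (-1.27 ± 0.20, adjusted p = 9.85e-05 with all libraries; edgeR, BH). Acinar sums measured 18900 to 118850 in Ctrl (median 59694), 10233, 24136, 21301 and 42057 in β-Mfn1KO, 35463, 107950, 31943, 441440 and 41250 in β-Mfn2KO and 27327, 45730, 27597, 1018500 and 2653700 in β-Mfn1/2DKO normalized counts, with Ptf1a at 0 in some library. Of 9 ductal markers 2 rose, Muc1 (1.5 ± 0.41) and Krt19 (2.94 ± 0.88), and 0 without β-Mfn1/2DKO replicate 5 or without replicates 4 and 5 (1 higher at an unadjusted p under 0.05), with Krt7 the most abundant and Cftr at 0 in some library. Muc1 lost its call without β-Mfn1/2DKO replicate 5 (adjusted p = 0.0845), and Krt19 without Ctrl replicate 1 (adjusted p = 0.0525), 3 (adjusted p = 0.0519), β-Mfn1/2DKO replicate 4 (adjusted p = 0.0516) or 5 (adjusted p = 0.134) (edgeR, BH). Ductal sums measured 31616 to 34821 in Ctrl (median 33212), 34301, 31532, 30768 and 37655 in β-Mfn1KO, 34462, 33286, 35561, 34955 and 30120 in β-Mfn2KO and 42368, 44516, 40222, 41536 and 42454 in β-Mfn1/2DKO normalized counts. All 5 β-Mfn1/2DKO sums lay above all controls, but Krt7, which was not called, made up most of each sum. Krt7 stood at 31135, 33450, 29776, 28296 and 24603 in β-Mfn1/2DKO and at 20867 to 23906 in Ctrl. Over the 9 ductal markers the median was 0.31, and 0.05 over the 7 that averaged 100 or more. Of 7 α-cell markers and 5 δ- and PP-cell markers edgeR and DESeq2 called 0 each, with 3 α-cell markers higher and 1 δ- or PP-cell marker lower at an unadjusted p under 0.05 and 1 α-cell marker called higher without Ctrl replicate 2, Gcg and Ppy being the most abundant. Their sums overlapped between β-Mfn1/2DKO and Ctrl. The part of all these cells in the results on the members was not tested.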

How the data were processed

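RNA of isolated mouse islets was sequenced in 20 libraries of 4 genotypes. The deposited counts are whole numbers per gene, which the submitters' notes describe as paired-end reads aligned to GRCm38 with STAR 2.6.1b and counted with RSEM 1.3.1, genes at 0 in every sample being removed; cutadapt 2.3 and FastQC 0.11.8 are also named. A strand setting is not stated. The deposited normalized table was not used here. Symbols (28579 of 28632 genes) and exon lengths came from GENCODE M21. Counts were scaled by TMM and fitted with edgeR 4.0.16 (R 4.3.3, limma 3.58.1) by its quasi-likelihood test, with 1 coefficient per genotype, no low-count filter, and Benjamini-Hochberg adjustment over all 28632 genes in each of 5 contrasts. Tables and figures were made with Python 3.11.15, pandas 2.3.3, numpy 2.4.6 and matplotlib 3.10.9.

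Of the 60 members, those called in any contrast, the 2 with the highest RPKM in Ctrl in each class, and Fn1, Nid1, Nid2, Sparc and Hspg2 are named with values, as are up to 4 called genes and, for cell types, the most abundant gene of each list. Single genes named beyond this rule were chosen after their values were seen. A pair of genes that the rule takes, with sums that rest on them, is not reported here. The members and lists were chosen with earlier results of these data known. The 32 alternatives were DESeq2 1.42.0, its size factors, total-count scaling, a low-count filter, replicate number as a block, sex or depth class as a term, only the groups compared, only deep libraries, each of 20 libraries left out in turn, and 3 sets of libraries left out.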

Additional observations from a re-analysis of the deposited data

Results flagged for a closer look

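Of 168 groups of 4 to 6 libraries examined, 16 held a library far from the others, where chance alone was put at about 8.4. That figure is a rough guide only. The counts were not put on a log scale, and the same libraries recur over genes that vary together. Among the members these were, in normalized counts, Col14a1 in β-Mfn1/2DKO replicate 5 (533.93, the others 794.21 to 870.29), Col15a1 in β-Mfn2KO replicate 3 (468.41, the others 231.81 to 264.62), and Col7a1 (446.6, the others 104.99 to 192.1) and Lamb3 (235.05, the others 14.105 to 69.244) in β-Mfn2KO replicate 4. Ctrl replicate 6 was far above the other controls in Col1a1 (4227.6, the others 130.84 to 540.94), Lamb2 (252.16, 87.697 to 141.72), Sparc (3150.5, 1023.4 to 1419.4) and Fn1 (2098.2, 56.126 to 154.42), and in summed pericyte and fibroblast markers (2820.5, 1175.1 to 1355.4) and macrophage markers (28905, 4849.6 to 6928.9). β-Mfn2KO replicate 5 was far above its group in Col1a1 (5544.2, 81.81 to 705.31), Sparc (3262.5, 1166.0 to 1701.4), Fn1 (2249.4, 25.389 to 218.05) and macrophage markers (39090, 4951.3 to 7090.8). Fn1 was high in β-Mfn1/2DKO replicate 4 (471.87, 117.75 to 177.01), and summed acinar markers in β-Mfn2KO replicate 4 (441440, 31943 to 107950).

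The effect of Mfn1 loss differed with and without Mfn2, by the interaction term of edgeR, for 11 members, with log2 differences of -1.39 for Col16a1, 1.43 for Col14a1, 0.80 for Col4a2, 0.63 for Col4a1, 1.19 for Col15a1, 0.72 for Col11a2, 0.73 for Lamb1, 1.29 for Col28a1, 1.80 for Col6a4, 1.33 for Lama5 and 2.07 for Col4a5.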

How the results depend on the processing

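Depth and genotype cannot be told apart in β-Mfn1/2DKO against Ctrl. The depth term rests on β-Mfn2KO, whose deep libraries, replicates 4 and 5, also stand apart in acinar and macrophage markers. Of the values with a call, 1385 kept direction and call without 1 library, 134 lost the call and 1 turned sign. Under the other alternatives these were 663, 153 and 12. Each value is for a gene, a comparison and an alternative, pooled over the named members and genes of the other lists. The library left out was often of a genotype outside the comparison, so these numbers do not give the share of calls that hold. In β-Mfn1/2DKO against Ctrl (17 members called), 6 were called with depth class as a term, 8 without β-Mfn1/2DKO replicates 4 and 5, and 9 to 18 without 1 library; against β-Mfn2KO (8), 5 without that pair, 13 without Ctrl replicate 6 and β-Mfn2KO replicate 5, and 6 to 13 without 1 library; in the interaction (11), 6 with depth class, 6 without the first pair, and 5 to 14 without 1 library. The single knockouts had 0 calls throughout. Leaving out sets with Ctrl replicate 6 was chosen after seeing the data. Log2 fold changes of β-Mfn1/2DKO over Ctrl that turned sign were, without replicates 4 and 5 and then without all 4 libraries, -0.156 and -0.22 for Col7a1, -0.406 and -0.43 for Col4a5, -0.506 and -0.726 for Lamb3, -0.719 and -0.862 for Itgb4, -0.526 and -0.72 for Krt19, and 0.142 and 0.073 for Col25a1. With replicate number as a block, without Ctrl replicate 6 and β-Mfn2KO replicate 5, and without all 4, they were 1.479, 1.197 and 1.298 for Col1a1, 1.27, 1.133 and 0.67 for Fn1, and 2.803, 1.909 and 0.926 for Ogn. Only Ctrl has a replicate 6, so the block in effect leaves that library out. All these settings therefore set the same control aside and are not separate results. With depth class they were 0.058 for Col6a6, -0.143 for Sparc and 0.029 for Frem2, with total-count scaling 0.043 for Col25a1, and with sex 0.019 for Col1a1. Without 1 library the ranges were -0.167 to 0.281 for Col4a5, -0.68 to 1.2 for Col1a1, -0.282 to 0.054 for Col25a1, -1.56 to 1.128 for Fn1 and -7.173 to 1.907 for Ogn. The cause was not tested. The shallow controls, with 3 counts of Col22a1 in all, limit the scarce members.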
